A study of Mus musculus with 6 samples.

Results

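The 87 protein-coding genes named here for the proteins of the ribosome were taken from 21887 protein-coding genes on the assembled chromosomes. They are the genes whose symbol begins with Rpl or Rps and a number, without the ribosomal S6 kinases, whose names share the first letters. SALL4, a zinc-finger protein that binds DNA, was mapped by CUT&RUN, an assay that sequences the fragments a nuclease releases wherever the antibody to a protein sits on chromatin. The wild-type group was a Sall4 F/F line, which carries the gene flanked by recombination sites, and the knockout group was a Sall4 -/- line. Both were mouse embryonic stem cells cultured in 2i + LIF medium, a mixture of kinase inhibitors and a cytokine that keeps them in a naive state. Each group is 1 line with 2 SALL4 libraries, and nothing in the labels says that the libraries of a line came from separate cultures, so that the spread between them may be technical. The IgG libraries, 1 per line, were not analysed here.

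Ribosomal proteins build the large (Rpl) and the small (Rps) subunit of the ribosome, the machine that translates messenger RNA. Growing cells make them in large amounts and in matched proportions, and their genes are short, transcribed at high rates in nearly all cells, and often used as a picture of an active, housekeeping promoter. Many of their messenger RNAs begin with a run of pyrimidines through which their translation is controlled, and the promoters often hold sites for ETS-family factors and YY1. SALL4 is known to recognise short stretches rich in A and T with its last zinc-finger cluster. The peak lists hold no measure of transcription, so the activity of these promoters is background knowledge and was not measured here.

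Of the 87 members, 43 encode proteins of the large subunit and 30 proteins of the small subunit. The other 14 are relatives or genes that carry the name, such as Rpl3l, Rpl10l and Rpl39l, paralogues used in particular tissues, and Rps19bp1, whose product binds the Rps19 protein. The members lie on 19 chromosomes, with 13 on chromosome 7 and 4 on X. Their bodies span 374 to 16779 bp with a median of 3164 bp, against a median of 17169 bp over all coding genes. The window of a member is its gene body plus 10 kb on each side, and the windows together cover 2032 kb. An interval is a stretch called by the authors' peak caller in 1 library, and a consensus region is a stretch called in both wild-type libraries that overlaps no knockout interval. There were 37997 consensus regions.

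Promoter sequences show what SALL4 could meet at these genes. The first 2 below belong to the proteins of the ribosome with a listed start whose promoter window overlapped a consensus region, and the other 3 to well-known members without a consensus region at the start. Each is the 250 bases before the start in RefSeq (GRCm38.p6), written 5′ to 3′ on the strand of the gene, and capitals mark ATATT or its reverse complement AATAT.
Rpl41 (chr10:128549169-128549418, minus strand): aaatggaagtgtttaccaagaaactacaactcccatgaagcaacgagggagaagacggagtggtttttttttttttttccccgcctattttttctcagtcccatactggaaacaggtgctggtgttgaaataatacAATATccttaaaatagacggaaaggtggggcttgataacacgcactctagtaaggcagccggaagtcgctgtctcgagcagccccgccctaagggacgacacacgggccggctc
Rps26 (chr10:128626507-128626756, minus strand): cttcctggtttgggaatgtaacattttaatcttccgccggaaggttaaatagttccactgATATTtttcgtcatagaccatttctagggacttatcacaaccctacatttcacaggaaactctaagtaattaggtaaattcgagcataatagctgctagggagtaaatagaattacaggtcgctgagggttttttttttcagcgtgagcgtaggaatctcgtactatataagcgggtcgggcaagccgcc
Rps6 (chr4:86857368-86857617, minus strand): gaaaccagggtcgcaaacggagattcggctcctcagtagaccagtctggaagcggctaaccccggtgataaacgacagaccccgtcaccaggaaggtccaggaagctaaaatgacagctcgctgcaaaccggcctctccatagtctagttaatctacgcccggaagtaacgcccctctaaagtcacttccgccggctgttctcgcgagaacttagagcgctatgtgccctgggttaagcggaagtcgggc
Rpl11 (chr4:136053394-136053643, minus strand): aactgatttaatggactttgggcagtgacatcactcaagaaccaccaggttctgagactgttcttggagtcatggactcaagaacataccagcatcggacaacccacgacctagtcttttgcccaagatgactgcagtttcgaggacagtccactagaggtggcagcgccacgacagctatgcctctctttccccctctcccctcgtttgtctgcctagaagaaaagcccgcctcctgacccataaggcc
Rps19 (chr7:24884342-24884591, plus strand): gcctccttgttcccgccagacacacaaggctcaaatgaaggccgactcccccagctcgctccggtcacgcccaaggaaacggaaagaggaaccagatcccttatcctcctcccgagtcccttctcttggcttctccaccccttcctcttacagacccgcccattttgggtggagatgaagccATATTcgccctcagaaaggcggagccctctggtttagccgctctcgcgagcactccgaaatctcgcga
Rpl41 and Rps26 each held 1 match, Rps19 held 1, and Rps6 and Rpl11 held 0. At Rpl41 the consensus region covered 226 of the printed bases, and the middle of AATAT lay inside it, 112 bp before the start and 47 bp from the stronger of its summits. At Rps26 the region covered 20 of the printed bases, and the match lay 43 bp outside it.

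The genotype comparison asked whether intervals at ribosomal protein genes were present without SALL4. Wild-type replicates 1 and 2 held 107 and 98 intervals in the members' windows, and both knockout lists held 0. The wild-type mean was 102.5 ± 6.36 intervals (SD, n = 2), and the groups did not overlap. With 3 intervals set in place of each knockout 0, the wild-type mean was 34.2-fold higher. The 3 is a chosen value, and this ratio does not cover the spread between libraries. The difference of log2(number + 1) was 6.69, and permuting the library labels exactly, two-sided, gave p = 0.333, the smallest value that 2 libraries against 2 can give. In wild type the intervals lay at 52 and 48 members, which is 59.8% and 55.2%, while 49.9% and 46.9% of all coding genes had one in the same lists. Within 1 kb of a gene start they lay at 12 and 11 members, which is 13.8% and 12.6%, against 10.3% and 8.9% of all coding genes. In each knockout list 0.00914% of all coding genes had one in the window. For 0 of 87 members the upper Wilson 95% bound was 4.23% in each knockout list. This bound treats the genes as independent and does not cover the spread between libraries. The members' intervals made up 0.194% and 0.203% of the wild-type lists, and the knockout lists held 34 and 39 intervals in all. Members without a knockout interval were thus like nearly every other gene in those short lists.

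**Figure D1:**
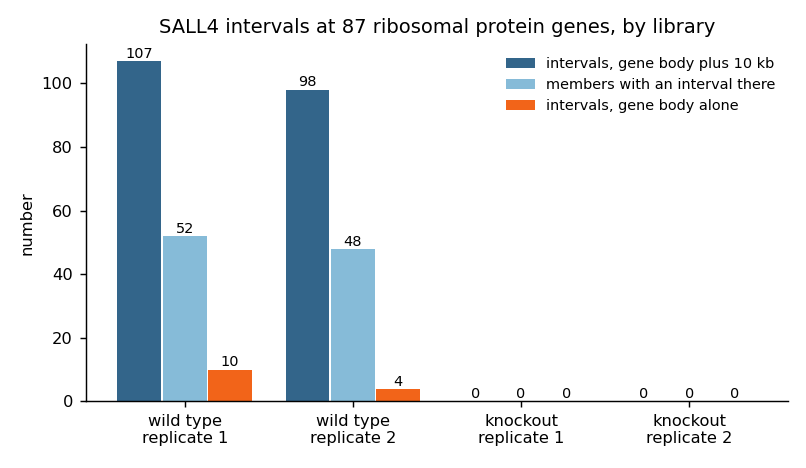
Number of SALL4 intervals at the 87 ribosomal protein genes in each library (y axis, counts). Dark bars count intervals in the gene body plus 10 kb, pale bars the genes with such an interval, and orange bars intervals that overlap the gene body. Both wild-type libraries hold about 100 intervals, few of them in gene bodies, and both knockout libraries hold 0.

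SALL4 regions lay around the ribosomal protein genes, and few lay in their short bodies. A consensus region was present in the windows of 42 of 87 members (48.3%), while 42.1% of all coding genes had one. Within 1 kb of a gene start it was present at 8 members (9.2%), against 7.28% of all coding genes. In the gene body it was present at 2 members (2.3%), against 27.6% of all coding genes. Since long genes hold more regions, the members were also set beside the 9388 coding genes that are no longer than the longest member and are not olfactory, vomeronasal, trace-amine or taste receptors. Of those, 28.2% had a region in the window, 6.26% at the start and 8.38% in the body. The members were thus above this background in the window and, on 2 genes, below it in the body. At the start they were slightly above both backgrounds. The order at the start turned with the settings: with listed starts alone it was 5.97% against 6.95% of all coding genes, since 4 of the 8 members were counted only because either end was accepted, and at a −log10 q of 10 or more it was 1.15% against 1.85%. The short non-receptor genes are still longer than the members, with a median of 6459.5 bp against 3164 bp, so the body shares are not matched for length. Beside other non-receptor genes of the same lengths, the body share was 4.55% (1 gene) against 2.64% for members of up to 2308 bp and 4.55% (1 gene) against 11.3% for those above 4615 bp, so that it was not lower in every length class. In replicates 1 and 2 taken alone, 35.9% and 32.6% of the short genes had an interval in the window, and 8.83% and 7.67% at the start. The members' place above all coding genes in the window held for weaker regions and wide flanks: with a flank of 5 kb their share was 31% against 36.2%, and when both folds had to reach 10 it was 9.2% against 15.7%. Genes are not replicates, and these shares are given without a test.

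**Figure D2:**
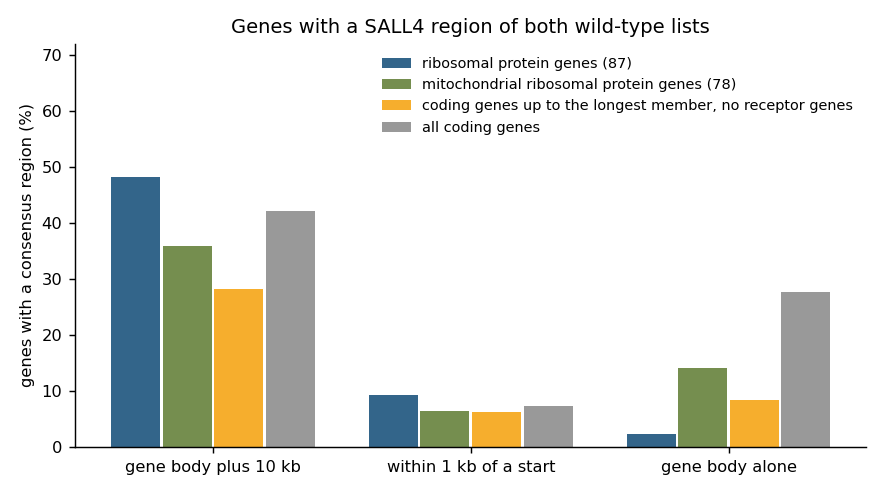
Share of genes (y axis, %) with a consensus region in the gene body plus 10 kb, within 1 kb of a start, and in the gene body alone, for ribosomal protein genes, mitochondrial ribosomal protein genes, coding genes up to the length of the longest member without receptor genes, and all coding genes. Ribosomal protein genes have the tallest bar for the window (48.3%) and the shortest for the body (2.3%, 2 genes). They are also the shortest genes of these sets, by median length.

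The bodies with a region were those of Rps23rg1 and Rps27a. Rps23rg1 is the longest member, named as a retrogene of Rps23, and held 2 regions. Rps27a encodes a small-subunit protein fused to ubiquitin, and its region reached 8 bp into the annotated gene, in replicate 1 only, with the summit outside. Of the 73 genes for proteins of the ribosome itself, 0 had the strongest summit of a consensus region inside the body, against 26.8% of all coding genes and 7.19% of the short non-receptor genes. Their median length was 3164 bp, against 17169 and 6459.5 bp in those 2 sets, so these shares are not matched for length. In the separate lists, intervals overlapped 7 member bodies in replicate 1 and 2 in replicate 2, where 32.9% and 30.7% of all coding genes and 11.4% and 9.86% of the short non-receptor genes had one. In replicate 1 further intervals, not found in replicate 2, overlapped the bodies of Rpl4, Rpl23a, Rpl24, Rps20 and Rps27l. The strongest, at the edge of Rpl23a on chromosome 11 from 78183549 to 78183694, had a fold enrichment over the local background of 6.61 and 12 fragments at its summit, and the others rested on 4 to 8 fragments. Rps20 also had a body interval in replicate 2, at another place, with a fold enrichment of 3.52. These genes were named after their values were seen. The gene table lists 309 pseudogenes that carry names of ribosomal protein genes, and how reads matching several places were treated is not given in the sources used here. Whether this bears on the counts in gene bodies was not tested.

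Counted by length, regions were dense beside the members and sparse in them. The flanks held 66 regions over 1707 kb, or 0.387 per 10 kb, and the bodies 3 over 325 kb, or 0.0924 per 10 kb. For all coding genes the densities were 0.212 in flanks and 0.184 in bodies, and for the short non-receptor genes 0.203 and 0.147. In replicates 1 and 2 taken alone, the members' flanks held 0.568 and 0.551 intervals per 10 kb against 0.294 and 0.261 at the short non-receptor genes. Their bodies held 0.308 and 0.123 against 0.22 and 0.184, so that the lower density in bodies was seen in replicate 2 and in the consensus, not in replicate 1. For the 73 proteins of the ribosome, the body densities were 0.189 and 0.0379, below those of the short genes in both lists.

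The surroundings of the ribosomal protein genes held more SALL4 summits than those of short genes over a long range. So did those of some other translation genes and of other housekeeping genes. Within 2 kb of the 73 bodies there were 0.479 summits per 10 kb, at 2 to 10 kb 0.334, at 10 to 50 kb 0.217 and at 50 to 200 kb 0.255. The short non-receptor genes had 0.253, 0.188, 0.174 and 0.178 over the same distances. The elongation factors had 0.417, 0.521, 0.417 and 0.267, and the initiation factors 0.745, 0.372, 0.21 and 0.236. Other housekeeping genes such as Actb and Gapdh had 0.469, 0.312, 0.32 and 0.227, above the short genes at every distance. Ribosome biogenesis genes had 0.25, 0.219, 0.25 and 0.217, above the short genes at all but the nearest distance. Proteins of the ribosome outside the naming rule had 0, 0.0893, 0.179 and 0.152, and the mitochondrial ribosomal protein genes 0.192, 0.128, 0.226 and 0.175, below the short genes at 3 of 4 distances. The 14 relatives had 0.357 in the nearest 2 kb, on 2 summits, and 0.491 and 0.5 at 2 to 10 and 10 to 50 kb. Genes close to each other share part of these distances, so a summit can be counted for more than 1 of them.

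**Figure D3:**
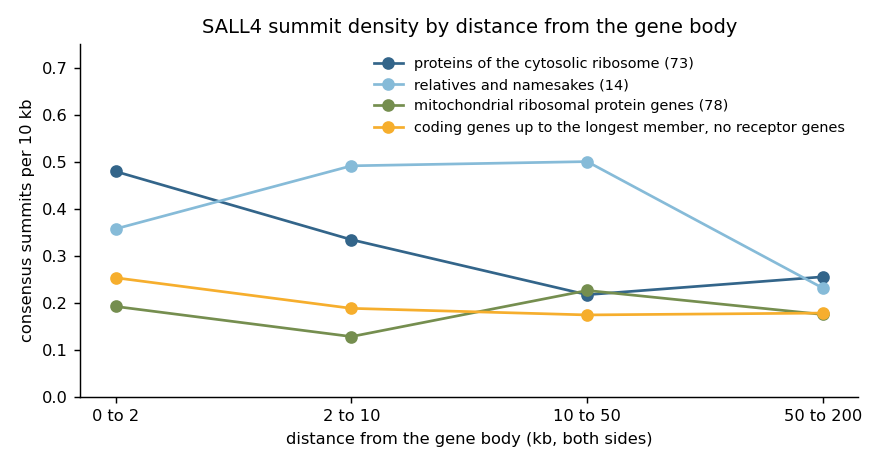
Consensus summits per 10 kb (y axis) by distance from the gene body on both sides (x axis, kb), for the 73 genes of ribosome proteins, their 14 relatives and namesakes, 78 mitochondrial ribosomal protein genes, and short non-receptor coding genes. The 73 genes start at 0.479 in the nearest 2 kb and stay above the short genes to 200 kb.

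Summits were also counted by their distance from the start. A start is listed in RefSeq for 67 members. From the start to 2 kb into the gene there were 0 consensus summits at these 67, and in the 2 kb before it there were 6, or 0.448 per 10 kb. Over all coding genes the density also fell across the start, from 0.358 to 0.155 per 10 kb, and at the short non-receptor genes from 0.335 to 0.125. At such densities a bin of 67 genes holds few summits, and the empty bin is given as a count only. Over the stretch from 2 kb before to 4 kb after the start the density was 0.199 per 10 kb, against 0.34 further upstream and 0.345 further downstream to 20 kb. For the short non-receptor genes the 3 values were 0.201, 0.191 and 0.161, and for all coding genes 0.238, 0.204 and 0.184. Around the start the members were thus level with the short genes, and further out they were above both. The nearest consensus summit lay at a median of 15.4 kb from the start of a member, with quartiles of 6.52 and 33.5 kb, and at a median of 32.1 kb over all coding genes. Within 1 kb of the start lay a summit at 4 of the 67 (5.97%), while 5.53% of all coding genes with a listed start had one.

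**Figure D4:**
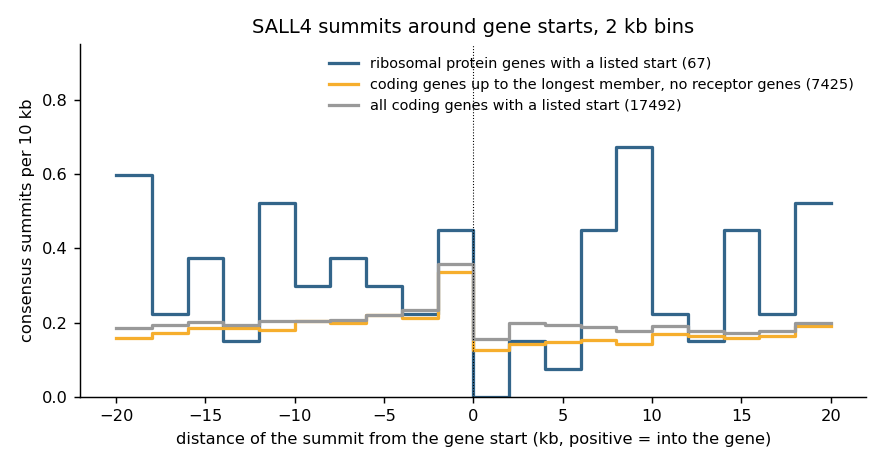
Consensus summits per 10 kb (y axis) in bins of 2 kb by distance from the gene start (x axis, kb), for the 67 ribosomal protein genes, the 7425 short non-receptor coding genes and the 17492 coding genes with a listed start. The bin after the start holds 0 summits at ribosomal protein genes, and the bins on both sides vary widely because each holds at most 9 summits.

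The 8 members with a region at the start were Rpl3, Rpl10, Rpl32, Rpl41, Rps23rg1, Rps26, Rps27a and Rps29. At Rpl41, the gene of the smallest protein of the ribosome, the region spanned chr10:128549193-128549505, and its fold enrichment was 9.58 in wild-type replicate 1 and 8.24 in replicate 2, as the authors' peak caller gave them, on 15 and 13 fragments. It was the only one of the 8 start regions whose −log10 q reached 10 in both lists. At Rps26, a small-subunit gene, the region spanned chr10:128626737-128626933 with fold enrichments of 3.44 and 4.76 on 4 and 6 fragments. At Rpl10, an X-linked large-subunit gene, the region spanned chrX:74269864-74270378 with fold enrichments of 4.13 and 6.12 on 5 and 8 fragments, with its stronger summit 586 bp before the start. Among the 4 members with a listed start and a region there, Rpl41 had the highest fold enrichment and the most fragments in both replicates. The Rps26 region in replicate 1 was at the lowest summit height of that list, 4 fragments.

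At Rps23rg1 the region lay 358 bp before the start, with fold enrichments of 3.59 and 5.63. Rpl3, Rpl32, Rps27a and Rps29 have no listed start, and a region near either end was counted. Their regions had fold enrichments of 3.56 and 6.12 at Rpl3, 4.82 and 5.44 at Rpl32, 6.89 and 5.44 at Rps27a, and 6.89 and 8.05 at Rps29. In replicate 2 the Rps29 region held 15 fragments, more than the 13 at Rpl41. With listed starts alone, 4 of 67 members (5.97%) had a region within 1 kb, against 6.95% of 17492 coding genes. That setting was chosen after seeing the data, and with it the members were just below the background. Start intervals without a partner in the other list included those at Rps20 and Rpl23a in replicate 1 and at Rps3, Rps19bp1 and Rps20 in replicate 2.

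The regions in the members' windows were of modest strength. The 69 regions had median fold enrichments of 6.2 and 6.05 in replicates 1 and 2, against 7.11 and 6.54 over 37965 consensus regions on the assembled chromosomes. Their range was 3.41 to 23.4 in replicate 1 and 3.31 to 25.3 in replicate 2. A fold enrichment of at least 10 in both lists was reached by 9 of them (13%), against 21.2% of all consensus regions. The median summit held 9 and 8 fragments at the members and 11 and 10 over all consensus regions. Their median place in the ranking by fold enrichment was 44.6% down the list on average over both lists, against 37.7% for all consensus regions.

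**Figure D5:**
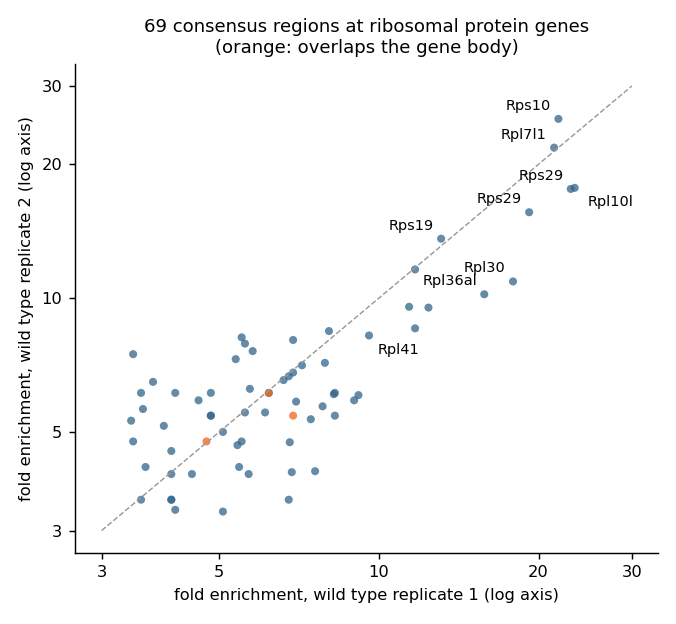
Fold enrichment over the local background in wild-type replicate 1 (x axis, log scale) and replicate 2 (y axis, log scale) for the 69 consensus regions in the members' windows, 1 point each. The dashed line marks equal values, orange points overlap a gene body, and the named points are regions with a mean fold enrichment of at least 13 and Rpl41. Orange points all lie below 7 in both replicates.

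Agreement between replicates was somewhat lower at the members than over the lists, within counting error. In the members' windows, replicate 2 held a partner for 68 of the 107 replicate 1 intervals, or 63.6% (Wilson 95% bounds 54.1 and 72.1), against 70.4% of the whole list. Replicate 1 held one for 70 of the 98 replicate 2 intervals, or 71.4% (61.8 and 79.4), against 79.3% of the whole list. Both whole-list values lie inside the members' intervals, which cover counting error only. Intervals found in 1 list only had a median fold enrichment of about 4, 4.06 in replicate 1 and 4.08 in replicate 2.

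The strongest regions lay several kb from the genes. The highest mean fold enrichment was at Rps10, a small-subunit gene, where the region chr17:27625407-27626317 had fold enrichments of 21.8 and 25.3 and 42 fragments at the summit in each replicate. It ranked 1604 of 55058 intervals in replicate 1 and 654 of 48295 in replicate 2, its summit lay 9371 bp beyond the start on the downstream side, and the nearest gene was Nudt3. At Rpl7l1, whose protein is related to that of Rpl7, the region chr17:46787824-46788688 had fold enrichments of 21.4 and 21.8 and lay 5570 bp before the start. Near Rpl10l, a retrocopy of Rpl10 used in the male germ line, the region chr12:66275709-66276478 had fold enrichments of 23.4 and 17.7, and the nearest gene was the pseudogene Gm2915. The differences between replicates at these genes are as large as those between the genes, so their order is not resolved.

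Rps29, a small-subunit gene on chromosome 12 at 69157722 to 69159186, had the most regions, 5 within 8 kb of one end. The first of them, at 69159526 to 69159898, overlapped Rn7s1, a gene of the 7S RNA, and had fold enrichments of 6.89 and 8.05. Those at 69163805 to 69164365 and 69164642 to 69165362 were strong, with fold enrichments of 19.2 and 15.6 and of 23 and 17.6, and lay nearest to Lrr1, a leucine-rich repeat gene. Without Rps29 the density over the members' windows was 0.318 per 10 kb, against 0.34 with it and 0.189 over all coding genes.

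Rps23rg1 had 4 regions, with fold enrichments of 3.59 to 6.2 in replicate 1 and 4.76 to 6.12 in replicate 2. Rpl3, Rpl7l1, Rpl27, Rpl30 and Rps10 had 3 each. At Rpl30, a large-subunit gene, the region chr15:34436978-34437513 had fold enrichments of 17.9 and 10.9 and lay nearest to Matn2, which encodes a matrix protein. The other 2 at Rpl30 were weak, with fold enrichments of 4.44 and 4.02 and of 3.75 and 6.48, and lay in Matn2. At Rpl27 all 3 lay between 4.02 and 5.68 in both replicates. Of the remaining members, 10 had 2 regions, 25 had 1 and 45 had 0, and the median member had 0, as did the median coding gene.

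Several members are known from disease or from special roles. Rps19, the first gene linked to Diamond-Blackfan anaemia, a failure of red cell production, had 1 region 4830 bp before the start, on chromosome 7 at 24879600 to 24879915, with fold enrichments of 13.1 and 13.6 on 18 and 19 fragments. The gene nearest to it was Dmrtc2, 2107 bp away. Rpl38, whose loss in mice alters the pattern of the skeleton, had 1 region 6610 bp from the start, with fold enrichments of 3.93 and 5.16, overlapping the promoter window of Ttyh2. Rps6, whose protein is phosphorylated by the S6 kinases, had 3 intervals in replicate 2, the strongest with a fold enrichment of 4.71, and 0 in replicate 1. Rps3, a small-subunit gene whose protein also acts in DNA repair, had 1 interval in each list at different places, with fold enrichments of 4.13 and 4.02. Rpl11, whose protein binds the p53 inhibitor MDM2, Rpl22 and Rps7 had 0 intervals in every list.

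In all, 30 members (34.5%) had no interval in any list, against 46.8% of all coding genes and 60.7% of the short non-receptor genes. Among them were Rpl10a, Rpl11, Rpl14, Rpl15, Rpl17, Rpl18, Rpl22, Rpl22l1 and Rpl26. A further 9 (10.3%) had intervals in replicate 1 only, against 6.29% of all coding genes and 6.72% of the short genes. Intervals in replicate 2 only were found at 5 (5.75%), against 3.32% and 3.41%. The strongest of these was near Rps2, with a fold enrichment of 8.11 on 11 fragments in replicate 1, followed by Rpl12 with 6 in replicate 2. Others were Rpl5, Rpl13, Rps6, Rps21, Rpl13a and Rpl29, with 4.82 down to 3.95. A consensus region was present at 19 of 43 genes of the large subunit (44.2%), at 15 of 30 of the small subunit (50%) and at 8 of 14 relatives (57.1%). Of all coding genes 42.1% had one and of the short non-receptor genes 28.2%, so that the large-subunit share was near that of all coding genes. On X, 2 of 4 members had one.

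Many regions lay nearer to another gene than to the member. Another coding gene lay in the window of 77 of the 87 members, and 23 of the 69 regions had their summit inside a gene that is not the member. For 45 of the 69 the nearest gene was another gene, as with Nup210l near Rps27 and Polr3a near Rps24. Of the 69, 3 overlapped a promoter window of the member, at Rpl41, Rps23rg1 and Rps26, and 3 overlapped one of a neighbour, at Ttyh2, Syngr1 and Msrb1. A promoter window is listed for 67 members alone, so regions at the other members could not be counted for their own promoter. Where the strand is listed, 23 regions lay upstream and 21 downstream of the gene.

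Other genes of translation were counted the same way, by lists of symbols. Among proteins of the ribosome that the naming rule leaves out, Rplp1, a protein of the ribosomal stalk, had 1 consensus region in its window. Rplp0, also of the stalk, had an interval in replicate 2 only, and Rack1, a scaffold on the small subunit, in replicate 1 only. Fau, Rplp2 and Rpsa had 0 in both lists. The elongation factors had a region in 4 of 6 windows, the initiation factors in 27 of 47 (57.4%), the ribosome biogenesis genes in 12 of 20 (60%), the mitochondrial ribosomal protein genes in 28 of 78 (35.9%) and other housekeeping genes such as Actb and Gapdh in 10 of 16 (62.5%). Over all coding genes the shares were 42.1% in the window, 7.28% at the start and 27.6% in the body. Over the short non-receptor genes they were 28.2%, 6.26% and 8.38%. At the start the numbers in the lists, in the same order, were 0 of 6, 6 of 47, 1 of 20, 5 of 78 and 1 of 16. In the body they were 0 of 6, 12 of 47, 6 of 20, 11 of 78 and 1 of 16, for genes whose median lengths were 8509.5, 17444, 11453, 7690.5 and 10960 bp. Mitochondrial ribosomal protein genes, which encode the ribosome of mitochondria, had 0.198 regions per 10 kb in the body and 0.143 in the flanks. Elongation factors had 0 and 0.5, other housekeeping genes 0.127 and 0.344, initiation factors 0.313 and 0.426, and ribosome biogenesis genes 0.349 and 0.25. Flanks denser than bodies were thus also found in 3 of these 5 lists, as at the members. The difference between the lists was not tested.

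The members' promoters were then compared with all others by their letters. From 250 bases before to 50 after the start, the 67 promoters had a median C+G content of 56.7%, against 56.3% over 17492 coding genes. ATATT on either strand was in 10 of the 67 (14.9%), against 23.2% of all coding promoters, and the longer AATATT, of which each match also holds ATATT, in 1 (1.49%), against 6.51%. CCGGAAG on either strand, a sequence that ETS-family factors recognise, was in 23 (34.3%), against 11.9%, and AAGATGG on either strand, the core of YY1 sites, in 10 (14.9%), against 6.35%. TATAAA on the strand of the gene was in 7 (10.4%), against 8.99%. A C at the start followed by 4 pyrimidines was found at 13 (19.4%), against 2.17%. Such matches describe the letters in these windows.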

How the data were processed

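CUT&RUN peak lists of 4 SALL4 libraries, 2 per genotype, were used. Per the labels' protocols, cells were permeabilised with digitonin and libraries made with a Kapa kit. Per the submitters' processing notes, Trim Galore 0.6.0, cutadapt 1.18, BWA 0.7.17 and MACS2 2.1.1.20160309 were used with GRCm38 (mm10). Their settings and the control are not given in the sources used here. The authors deposited 1 list per library: a fold enrichment (a ratio to local background), −log10 p-values and −log10 q-values of the summit, a summit offset, and a score that is the whole part of 10 times the deposited −log10 q. No sequencing depth is listed, and whole summit pileups were recovered from fold and p with a pseudocount of 1, within 0.0001 in −log10 p, for 100% of lines (median 9 fragments in both wild-type lists, 12 and 12.5 in the knockout lists).

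Overlapping lines of a list were merged and the highest fold kept. Overlaps needed 1 bp. Genes, starts and promoters came from RefSeq tables of GRCm38.p6, in which 67 members have a listed start. Coordinates count from 1. Groups and replicate numbers came from the titles. Shares carry no test, and the genotypes were compared by exact permutation. Assignment and pileups were tested on simulated data. Named genes were the members with a region at the start, those with the most regions, the 5 strongest, those called in 1 list only, members without intervals by symbol, 8 well-known members and proteins outside the rule. Some genes the rule would name are not reported here. Of the members with the most regions the 7 with 3 or more are named, since the rest tie. Members and lists were chosen with earlier results of these data known. Alternatives covered the flank, stricter thresholds, overlap rules, single replicates and the pairing by number. Python 3.11.15, numpy 2.4.6, scipy 1.17.1, pandas 2.3.3 and matplotlib 3.10.9 were used.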

Additional observations from a re-analysis of the deposited data

How the results depend on the processing

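The excess of wild-type over knockout intervals at the members, 6.69 in log2(number + 1), ran from 2.89 in gene bodies alone to 7.67 with a flank of 25 kb; both knockout counts were 0 under each setting, so that the direction could not turn and the value follows the wild-type numbers. It was 6.63 to 6.75 with one replicate left out. In the paired fit, with a replicate block, it was 6.69, and flipping the signs exactly gave p = 0.5, the lowest that 2 pairs allow; whether the numbers pair the libraries was not tested, as both knockout values are 0. The 42 members with a consensus region became 2, 11 and 27 with flanks of 0, 1 and 5 kb, which are smaller by construction, 13 when −log10 q had to reach 10 and 8 when the fold had to reach 10, and were 48 to 52 in single lists. At the strict q-value the members' share of 14.9% was below the 20.5% of all coding genes, and at a fold of at least 10 it was 9.2% against 15.7%. With flanks of 1 and 5 kb it was 12.6% against 30.1% and 31% against 36.2%. The cause of these shifts was not tested. The 8 members with a region at the start became 5 within 250 bp (5.75% against 4% of all coding genes), 19 within 3 kb (21.8% against 14%), 1 at the strict q-value (1.15% against 1.85%) and 4 with listed starts alone, and were 11 to 12 in single lists. The 0.34 regions per 10 kb became 0.0924, 0.261 and 0.288 with flanks of 0, 1 and 5 kb, 0.387 in the flanks alone and 0.0689 at the strict q-value (all coding genes 0.055), and were 0.482 to 0.527 in single lists, which hold more intervals. The mean share found in the other replicate, 67.5%, became 53.3% with a reciprocal overlap of 50%, 55.2% with summits within 100 bp and 83.5% at the strict q-value. With the outer end of the gene as its start the count stayed at 8. The outer-end, listed-start, flank-alone, Rps29 and separate-window settings were chosen after seeing the data. The weakest wild-type calls rest on 4 fragments, so single regions of that height are weakly supported. No sequencing depth is listed, and its effect was not tested.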

Other observations

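Of the 10 members with ATATT or AATAT in the promoter window, 3 had a consensus region within 1 kb of the start, and of the 57 without it 1 had one. Over all coding genes with a listed start, the shares were 6.36% of 4055 with the letters and 7.12% of 13437 without them. The member counts are too small to read a relation from.

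A snoRNA gene, whose RNA guides the modification of other RNAs, lay inside the body of 28 of the 87 members. No share over other coding genes is given beside it, and a link to the SALL4 regions was not tested. Members split by length into 4 classes had a region in the window at 11 of 22, 7 of 22, 11 of 21 and 13 of 22, from short to long, against 18.9%, 21.9%, 25.6% and 31.7% of other non-receptor coding genes of the same lengths. In the body the members' counts were 1, 0, 0 and 1, against 2.64%, 2.6%, 4.88% and 11.3% of the other genes.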
